A study of Mus musculus with 15 samples.

Results

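A330023F24Rik is a mouse long intergenic noncoding RNA (lincRNA) gene on chromosome 1 whose span holds the hairpins of Mir29b-2 and Mir29c, the precursors of miR-29b and miR-29c. It was followed here through every listed row, that is every transcript of the deposited table, that carries its name in the GENCODE M21 annotation. This gave 2 rows of 10370, or 1 gene of the 7740 that could be named. The rows are ENSMUST00000181273, typed as lincRNA, and ENSMUST00000181947, typed as retained intron. The gene was selected on the HF-HI against Sham values of the lincRNA row, so that difference is given below as a description with no test.

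Total RNA came from the dissected cortex of male C57BL/6 mice (C57Bl/6J in the study's methods) aged 12 weeks, with 8 libraries 1 month after a course of high-frequency head impacts (HF-HI) and 7 after the Sham procedure. HF-HI mice received repeated daily head impacts under isoflurane anesthesia, and Sham mice had the same handling and anesthesia without impacts. Whole cortex was used, so a change in the number of cells that make a transcript and a change in RNA per cell cannot be told apart. Small RNAs were not measured in these libraries, and nothing below is a level of a mature microRNA.

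A microRNA host gene is transcribed into a long RNA from which a hairpin is cut by the Drosha and Dgcr8 complex, exported by Xpo5 and trimmed by Dicer1 to a short mature strand, which is loaded into an Argonaute protein. The mature strand pairs through its seed with matching sites in the 3′ untranslated region (UTR) of messenger RNAs and lowers their stability or translation. The miR-29 family is abundant in mature brain, where it is known for restraining proapoptotic BH3-only genes in neurons, enzymes that write and erase DNA methylation, and collagens. It comes from this locus and from the Mir29a and Mir29b-1 hairpins on chromosome 6.

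The mature 3p strands of the family, from RefSeq (GRCm38.p6), are shown first because the target comparisons below rest on their seed, which is in capitals.

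mmu-miR-29a-3p: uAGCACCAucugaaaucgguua

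mmu-miR-29b-3p: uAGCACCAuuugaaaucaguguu

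mmu-miR-29c-3p: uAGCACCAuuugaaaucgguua

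The seeds, bases 2 to 8, are identical. Counting from 1 at the 5′ end over the shorter strand, miR-29a differs from miR-29c by C10U, and miR-29b differs from miR-29c by A18G, G21U and U22A. The matching site in a messenger RNA reads TGGTGCT.

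The hairpins that lie in the gene follow, with the mature 3p strand in capitals. Mir29b-2 is at chr1:195037040-195037120 and Mir29c at chr1:195037547-195037634, both on the plus strand.

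Mir29b-2 hairpin: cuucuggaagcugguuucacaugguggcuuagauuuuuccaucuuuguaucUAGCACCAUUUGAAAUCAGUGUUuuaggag

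Mir29c hairpin: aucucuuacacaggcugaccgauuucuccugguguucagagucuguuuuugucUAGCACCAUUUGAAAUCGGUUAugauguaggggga

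The annotation gives A330023F24Rik 4 transcripts between positions 194976375 and 195037904 of chromosome 1 on the plus strand (GRCm38). The listed lincRNA row, ENSMUST00000181273, runs over 8 exons and 4217 exonic bases from 195017398 to 195036929, and its last exon accounts for 3107 of those bases. Its end lies 111 bases before the Mir29b-2 hairpin and 618 bases before Mir29c. The retained intron row, ENSMUST00000181947, starts 41013 bases further upstream and runs over 5 exons from 194976385 to 195027428. Only 1 annotated transcript, ENSMUST00000194584, has both hairpins within its exons, and it was not among the listed rows. Neither listed row therefore contains the hairpins. ENSMUST00000194584 shares 3269 exonic bases with the lincRNA row, so that reads from those bases could be assigned to either.

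**Figure D1:**
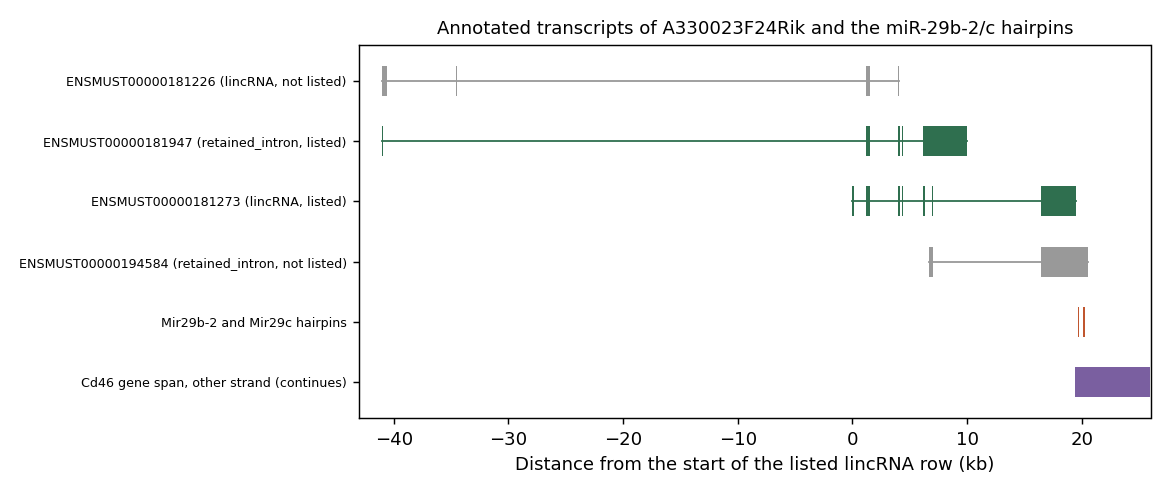
Exons (boxes) and introns (lines) of the 4 annotated A330023F24Rik transcripts, the miR-29 hairpins and the overlapping end of Cd46, against distance in kb from the start of the listed lincRNA row. Listed rows are green, unlisted ones grey; the hairpins lie beyond the end of the listed lincRNA row, 111 and 618 bases away.

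The 2 listed rows share 904 exonic bases. Of the lincRNA row 78.6% of the exonic bases are not in the retained intron row. Of the retained intron row 80.5% are not in the lincRNA row, so most exonic bases tell these 2 rows apart. They do not tell the lincRNA row from the unlisted ENSMUST00000194584, which holds 3269 of its 4217 exonic bases. The last 104 exonic bases of the lincRNA row lie under Cd46, which is transcribed from the other strand, and whether the counting used strand was not stated. Cd46 itself was not among the listed rows.

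The window around the start of the lincRNA row is printed because the 2 listed rows start at different places. It covers chr1:195017149-195017448 on the plus strand, 250 bases before and 50 after the RefSeq start of the gene (GRCm38.p6), with the transcribed bases in capitals.

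A330023F24Rik promoter: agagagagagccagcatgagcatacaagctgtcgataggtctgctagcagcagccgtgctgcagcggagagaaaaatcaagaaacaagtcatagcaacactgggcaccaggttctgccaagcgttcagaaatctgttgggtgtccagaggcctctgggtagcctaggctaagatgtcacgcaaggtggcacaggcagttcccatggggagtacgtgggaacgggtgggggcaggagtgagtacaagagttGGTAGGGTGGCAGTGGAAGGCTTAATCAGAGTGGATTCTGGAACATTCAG

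Its GC content was 54.0%, and it held 7 CG dinucleotides, the same as the median of 32851 mouse promoter windows of this length. On both strands it held no match to TGACGTCA (the cAMP response element, present in 1.79% of windows), its core TGACG (20.8%), CACGTG (E-box, 7.15%), AAAGGTCA (the NR4A element, 1.51%), TGANTCA (AP-1, 7.81%) or GTCTAGAC (SMAD, 0.213%). These letters being absent from 1 window is a description of the sequence.

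The level of the lincRNA row is given in normalized counts, reads divided by the size factor of the library, recovered from the variance-stabilized (VSD) values that the authors deposited. In the Sham libraries, from replicate 1 to 7, it was 901, 794, 848, 891, 920, 885 and 878 normalized counts. In the HF-HI libraries, from replicate 1 to 8, it was 1127, 1082, 1044, 1011, 905, 1051, 1114 and 1162. HF-HI replicate 5 lay inside the Sham range, and the other 7 HF-HI libraries lay above every Sham library.

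The group means were 874 ± 41.6 (SD, n = 7) in Sham and 1062 ± 80.2 (SD, n = 8) in HF-HI normalized counts, a ratio of 1.22. On the VSD scale, which is a log2 scale that compresses low counts, the difference was 0.13. These are the values for which the row was chosen. Among the 10370 rows, 344 had a larger difference in either direction on that scale. Over all rows the median VSD difference was -0.0013 and the median size of a difference, sign ignored, was 0.023.

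**Figure D2:**
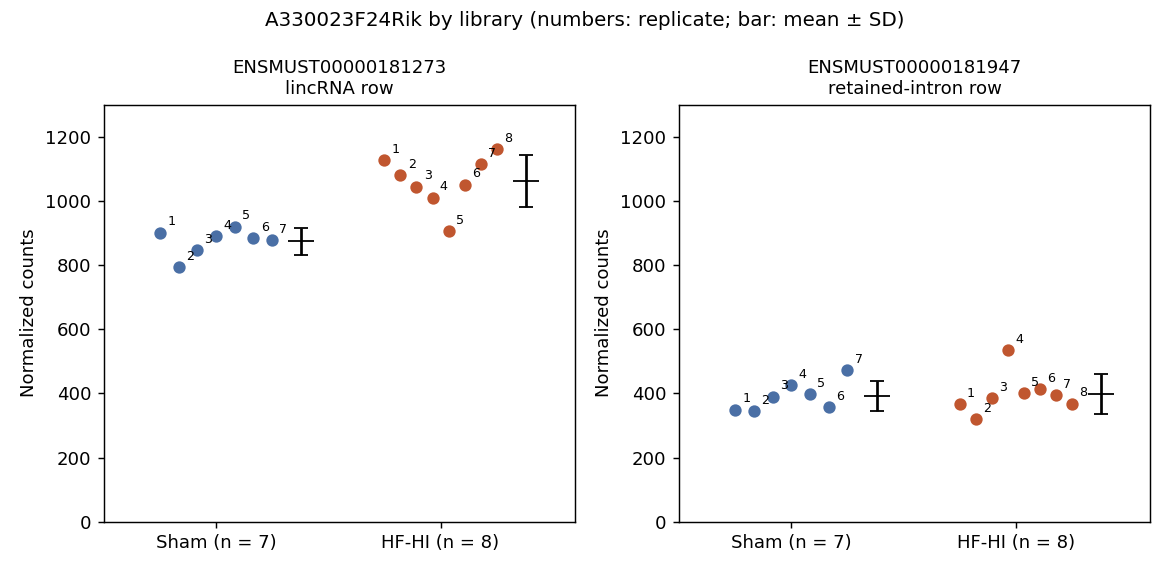
Normalized counts (vertical axis, from 0) of the 2 listed A330023F24Rik rows in each library, with the replicate number beside each point and the mean ± SD of 7 Sham and 8 HF-HI libraries in black. In the lincRNA row all HF-HI libraries but replicate 5 lie above the highest Sham library at 920 normalized counts, while in the retained intron row the groups overlap.

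Between 506 and 1381 reads stood behind the lincRNA row in a library. Counting reads alone would give an SD of 26.8 (Sham) and 36.5 (HF-HI) normalized counts, so the observed spread was larger than counting error in both groups. All 8 HF-HI libraries had fewer reads than the median Sham library. The group-centred level of the lincRNA row had an r of 0.083 with the group-centred log2 size factor over the 15 libraries, and its VSD difference was 0.13 also with the log2 size factor in the model.

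The retained intron row was a separate measurement that the choice of the gene did not rest on. It was between 346 and 473 normalized counts in the Sham libraries, with a median of 390, and between 320 and 535 in the HF-HI libraries, with a median of 391. The groups overlapped over most of their ranges. The highest value was that of HF-HI replicate 4, which had the fewest reads of all libraries, 268 of them in this row. The means were 391 ± 46.7 (SD, n = 7) in Sham and 398 ± 62.4 (SD, n = 8) in HF-HI.

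For the retained intron row the VSD difference was 0.0068 ± 0.031 (SE), and limma, a linear model fitted across all listed rows, gave an adjusted p of 0.968. No difference was detectable at this depth, which does not show that the groups were alike. Summed over both rows, the gene had 1265 ± 71.0 (SD, n = 7) normalized counts in Sham and 1460 ± 79.0 (SD, n = 8) in HF-HI, a ratio of 1.15. The sum was above every Sham library in 7 of 8 HF-HI libraries. The lincRNA row took 69.1% ± 2.4 (SD, n = 7) of the counts of the gene in Sham and 72.7% ± 3.9 (SD, n = 8) in HF-HI.

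Per kb of exon, the lincRNA row had 231 normalized counts over all libraries, above 79.0% of the listed rows. It ranked 23rd among the 60 listed rows typed as lincRNA, of which Malat1, a nuclear-retained RNA, led with 19989 per kb. The retained intron row had 85.3 normalized counts per kb, above 45.3% of the listed rows. The table holds no row under a mean of 108 normalized counts, so these ranks leave out transcripts below that mean. Rows above it can still be near 0 in a single library.

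The genes next to A330023F24Rik were read to see whether other transcripts of the region differed as well. Of 26 other annotated genes within 500 kb, 3 had listed rows, 4 rows in all, and none of those differed between the groups in limma at an unadjusted p under 0.05. Over all rows limma called 8.83% at that threshold, 4.94% higher and 3.9% lower in HF-HI, and none at an adjusted p under 0.1, where the lowest adjusted p was 0.206. Plxna2, which encodes a semaphorin receptor and ends upstream on the same strand at 194816869, was 1955 ± 88.8 (SD, n = 7) in Sham and 1984 ± 137 (SD, n = 8) normalized counts in HF-HI. Cd34, a vascular and progenitor cell surface protein, also lies upstream on the same strand, and ends at 194961279. Its row ENSMUST00000016638 went from 185 ± 23.8 (SD, n = 7) to 224 ± 46.6 (SD, n = 8) normalized counts, a VSD difference of 0.062 ± 0.030 (SE) with a limma adjusted p of 0.587, and its other row ENSMUST00000110815 was 458 ± 41.6 (SD, n = 7) in Sham and 455 ± 58.1 (SD, n = 8) in HF-HI. Cr1l, a complement regulator, is on the other strand downstream, with Sham values of 131 to 170 and HF-HI values of 118 to 177 normalized counts.

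Rows that followed the lincRNA row from library to library were sought next, after subtracting the group mean from each row so that the difference between groups could not create likeness. Likeness was Pearson's r of the centred VSD values over the 15 libraries, and rows were named only where r had the same sign within Sham and within HF-HI. The rows share library, depth and composition, they were ranked over 10368 candidates, and no p is given. There were 22 rows with an r of 0.7 or more and 13 with an r of -0.7 or lower. How many unrelated rows would reach these values among so many candidates was not determined. The range of A330023F24Rik within a group was set to a large part by its lowest libraries, HF-HI replicate 5 and Sham replicate 2, which deviated by -0.11 and -0.060 VSD from their group means.

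The 10 rows most like it were Gm20604, Dctn1, Zmym6, Arhgap21, Nr4a3, Nbea, Smad3, Alkbh5, Eif1b and Fxr1, with r between 0.75 and 0.81. None of them lies on chromosome 1. Gm20604, a predicted protein-coding gene, had the highest r at 0.81, and r fell to 0.56 without the 2 libraries farthest from the median of the lincRNA row. Its level in HF-HI replicate 5 was 0.822 normalized counts, which is a single read, against 81.9 to 206 in the other 14 libraries. Dctn1 (ENSMUST00000113918), which encodes the large subunit of dynactin for transport along microtubules, had an r of 0.80 that fell to 0.39 in the same way.

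For the other 8 rows r lay between 0.50 and 0.71 when the same 2 libraries were left out. Arhgap21, which encodes a GTPase-activating protein, had an r of 0.78 over all libraries and 0.71 without them. Nbea, which encodes neurobeachin, a protein of membrane trafficking at synapses, had 0.76 and 0.69. Smad3, a transcription factor of TGF-beta signalling, had 0.76 and 0.68. Alkbh5, an eraser of N6-methyladenosine in RNA, had 0.76 and 0.61, and Zmym6, a zinc finger gene, had 0.78 and 0.59. Eif1b, a translation initiation factor paralog, had 0.75 and 0.50, and Fxr1, an RNA-binding protein of the fragile X family, had 0.75 and 0.56.

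Nr4a3, an activity-induced orphan nuclear receptor, was the only one of these 10 rows that limma called between groups at an unadjusted p under 0.05. In the Sham libraries it was 106 to 195 normalized counts, with a within-group r of 0.56 to A330023F24Rik, and in the HF-HI libraries 196 to 405, with a within-group r of 0.88. Its lowest HF-HI library was replicate 5, the same as for A330023F24Rik, and its highest was replicate 1.

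The 5 rows that moved most opposite to A330023F24Rik within groups were Hace1, Chchd10, C1qc, Tmtc1 and Efhd1, with r between -0.83 and -0.74. Hace1 (a retained intron row), a ubiquitin ligase, had -0.83 over all libraries and -0.67 without the 2 farthest. Chchd10, a mitochondrial intermembrane protein, had -0.80 and -0.75. C1qc, a complement subunit made by microglia, had -0.78 and -0.73. It was the lowest of 7 microglial marker rows, whose median r was -0.058, with 3 above 0 and 4 below. Tmtc1, an endoplasmic reticulum mannosyltransferase, had -0.75 and -0.66, and Efhd1, a mitochondrial calcium-binding protein, -0.74 and -0.68. Hace1 and Tmtc1 also fell by the unadjusted threshold of limma, with VSD differences of -0.067 and -0.11. All 15 named rows, picked for their r in these same libraries, kept an r of at least 0.5 in size after the log2 size factor was removed.

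**Figure D3:**
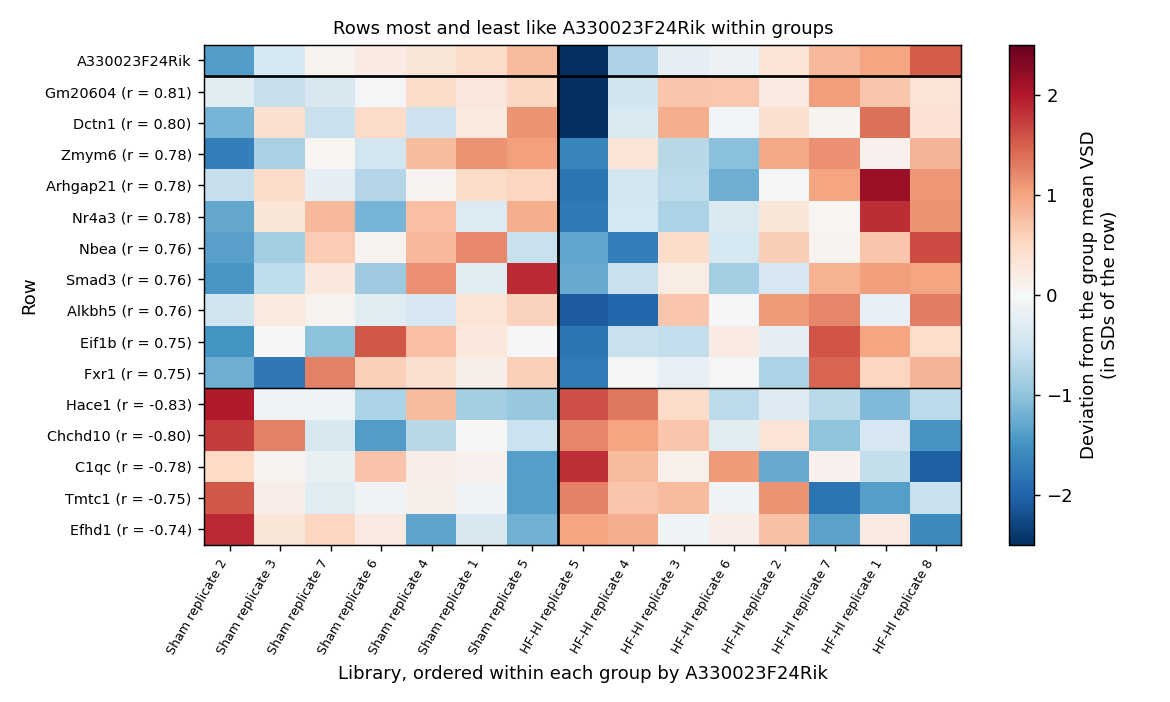
Deviation of each row from its group mean, in SDs of that row, for A330023F24Rik (top), the 10 rows most like it and the 5 most opposite, with r in parentheses. Libraries are ordered within each group by A330023F24Rik; its lowest HF-HI library, replicate 5, is also low in the 10 rows and high in the 5 opposite ones.

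The other row of the same gene was not among them. ENSMUST00000181947 had an r of -0.21 with the lincRNA row over the 15 libraries, 0.31 within Sham and -0.41 within HF-HI. Library-to-library variation of the 2 rows therefore did not run together. The 4 neighbouring rows had r between -0.24 and 0.35.

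Cell type markers were read beside these values because the tissue was whole cortex. Rows of Slc17a7, which marks cortical excitatory neurons, and of Gad1, which marks inhibitory neurons, were listed, as were markers of the other classes examined. Summed normalized counts of the 12 excitatory neuron rows were 18508 to 20413 in Sham and 19488 to 21470 in HF-HI. The sum was above every Sham library in 5 of 8 HF-HI libraries. Camk2a, 1 of the 12 rows, made up 7779 of the mean sum of 19649 in Sham and 8585 of 20697 in HF-HI. The 7 microglial rows summed to 2131 to 2268 in Sham and 1965 to 2310 in HF-HI. Of the 8 HF-HI libraries, 6 lay below every Sham library and 2 above every Sham library. The 16 rows of striatal markers, the tissue beneath the cortex, summed to 7276 to 11089 in Sham and 5194 to 10580 in HF-HI, below every Sham library in 3 of 8. Drd2 was not listed, and the defining markers Drd1, Adora2a and Rgs9 were. Their part in the A330023F24Rik difference was not tested.

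Astrocyte sums (24 rows, 62020 to 64323 in Sham and 61486 to 67131 in HF-HI) and oligodendrocyte sums (20 rows, 31063 to 35747 and 29433 to 36530) overlapped between the groups. The 7 inhibitory neuron rows summed to 5481 to 6187 in Sham and 5108 to 6126 in HF-HI, below every Sham library in 3 of 8. The 7 endothelial rows summed to 1958 to 2078 in Sham and 1694 to 2070 in HF-HI, below every Sham library in 4 of 8. The 5 choroid plexus rows, all of Ttr and Enpp2, spanned 1972 to 11212 in Sham and 2018 to 13832 in HF-HI, a wide range in both. Over the 15 libraries, the group-centred level of the lincRNA row had r between -0.49 (inhibitory neurons) and 0.21 (astrocytes) with the centred log2 sums of the 8 lists.

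Single markers that limma called at an unadjusted p under 0.05 were the excitatory genes Camk2a, Neurod2 and Rorb, which rose. The astrocyte genes Aldoc and Mlc1, the microglial P2ry12 and the striatal Pde10a, Ppp1r1b and Penk were also called, and fell. These were 3 of 12 excitatory, 2 of 24 astrocyte, 1 of 7 microglial and 3 of 16 striatal rows. None of the 7 inhibitory neuron, 20 oligodendrocyte, 7 endothelial or 5 choroid plexus rows was called. The share called over all rows was 8.83%, and whether any list differed from it was not tested. Camk2a, the alpha subunit of calcium/calmodulin-dependent kinase II, was 7779 ± 392 (SD, n = 7) normalized counts in Sham and 8585 ± 417 (SD, n = 8) in HF-HI. Pde10a, a striatal phosphodiesterase, was called in 1 of its 4 rows, ENSMUST00000089085, at 2560 ± 358 (SD, n = 7) and 1821 ± 420 (SD, n = 8). The VSD differences of its 4 rows ran from -0.31 to 0.065. With each of the 15 libraries left out in turn, the calls of Camk2a, Aldoc and Pde10a held throughout, while Neurod2 was called in 13 of the fits, Rorb in 6, Mlc1 and P2ry12 in 10, Penk in 7 and Ppp1r1b in 14. With the log2 size factor in the model, the limma calls of Camk2a and Pde10a held, and those of Aldoc (unadjusted p = 0.060), Neurod2 (0.068), Mlc1 (0.097), Penk (0.098), Rorb (0.18), Ppp1r1b (0.20) and P2ry12 (0.44) were lost. No marker passed a limma adjusted p under 0.1.

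Targets of miR-29 were read next, to see whether they differed alongside its host gene. Of 45 genes on the target list, 29 were listed, with 43 rows. In limma at an unadjusted p under 0.05, 4 of the 43 rows (9.3%) were higher and none lower. Over all rows, 4.94% were higher and 3.9% lower. None of the 43 rows passed an adjusted p under 0.1. The median VSD difference over the 43 rows was 0.0066, against -0.0013 over all rows. The share called in either direction was near the 8.83% of all rows, and the share called higher was above that of all rows. The 4 called rows were among the 32 with a matching site in the 3′ UTR (12.5%). None of the 9 rows with a 3′ UTR and no site was called. No lowering of the list was seen, and the difference in shares was not tested.

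Sites from the 3′ UTRs of the 4 rows that were higher are shown with the seed match in capitals, each 24 bases long, on the strand of the gene (GENCODE M21, GRCm38).

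Tet3 site, chr6:83364335-83364358, minus strand: aaatagtctaataaaTGGTGCTat

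Tet3 site, chr6:83363776-83363799, minus strand: aaggccgcttttagtTGGTGCTaa

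Kdm5b site, chr1:134631944-134631967, plus strand: ttctaaacagtgtgtTGGTGCTtt

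Mcl1 site, chr3:95661844-95661867, plus strand: ctagagtcttaaccaTGGTGCTat

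Ppm1d site, chr11:85346956-85346979, plus strand: tatttcaataacaaaTGGTGCTgc

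Tet3 (ENSMUST00000089622), an enzyme that oxidizes 5-methylcytosine, held 8 such sites, the most of any listed row, of which the 2 shown are those followed by an A. In Sham it ranged from 602 to 798 normalized counts with a median of 676, and in HF-HI from 736 to 953 with a median of 809. All 8 HF-HI libraries were above the Sham median, though the ranges overlapped. The VSD difference was 0.12 ± 0.028 (SE), with a limma adjusted p of 0.267.

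Kdm5b (ENSMUST00000047714), a histone H3 lysine 4 demethylase, had Sham values of 354 to 436 and HF-HI values of 433 to 519 normalized counts, with a VSD difference of 0.065 ± 0.018 (SE) and a limma adjusted p of 0.345. Its other listed row, ENSMUST00000112198, has no site and was 361 ± 41.8 (SD, n = 7) in Sham and 362 ± 38.9 (SD, n = 8) in HF-HI. Mcl1 (ENSMUST00000037947), an antiapoptotic member of the BCL2 family, had Sham values of 468 to 616 and HF-HI values of 591 to 687, with a VSD difference of 0.071 ± 0.021 (SE) and a limma adjusted p of 0.369. Ppm1d (ENSMUST00000020835), a phosphatase of the p53 pathway, had Sham values of 154 to 185 and HF-HI values of 177 to 236, with a VSD difference of 0.049 ± 0.017 (SE) and a limma adjusted p of 0.422. In each of these 3 rows all 8 HF-HI libraries were above the Sham median. All 4 calls held with each library left out in turn. The unadjusted p of Ppm1d in limma rose to 0.10 with the log2 size factor in the model.

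**Figure D4:**
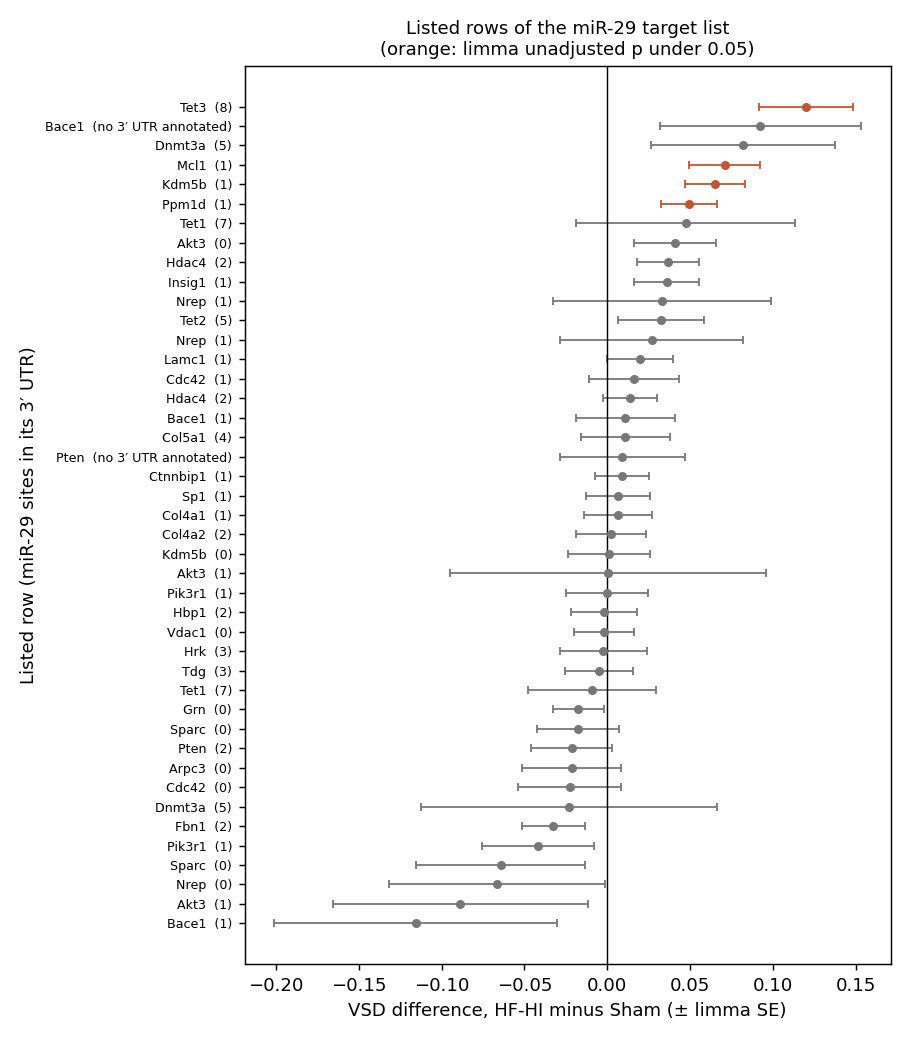
VSD difference (HF-HI minus Sham, ± limma SE) of the 43 listed rows of the miR-29 target list, with the number of seed matches in the 3′ UTR of each row in parentheses. The 4 orange rows, Tet3, Mcl1, Kdm5b and Ppm1d, have an unadjusted p under 0.05 and lie to the right of 0; the other 39 do not pass.

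The other DNA methylation enzymes on the list did not pass the test. Dnmt3a, a de novo methyltransferase with 5 sites, was 703 ± 104 (SD, n = 7) and 811 ± 180 (SD, n = 8) normalized counts in its row ENSMUST00000020991, and 344 ± 71.9 (SD, n = 7) and 347 ± 153 (SD, n = 8) in ENSMUST00000174817. Tet2, with 5 sites, was 592 ± 35.9 (SD, n = 7) in Sham and 629 ± 67.6 (SD, n = 8) in HF-HI. Tet1, with 7 sites in each of its 2 listed rows, was 118 ± 60.4 (SD, n = 7) and 128 ± 32.3 (SD, n = 8) in ENSMUST00000050826, and 147 ± 51.4 (SD, n = 7) and 140 ± 27.8 (SD, n = 8) in ENSMUST00000174189. Dnmt3b was not listed.

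Of the BH3-only genes that miR-29 is known to restrain, Hrk was listed and Bcl2l11, Bbc3 and Bmf were not. Hrk, with 3 sites, was 234 ± 37.1 (SD, n = 7) normalized counts in Sham and 232 ± 31.1 (SD, n = 8) in HF-HI, a VSD difference of -0.0024 ± 0.026 (SE). Of the matrix genes, Col4a1 was 333 ± 19.9 (SD, n = 7) and 339 ± 37.7 (SD, n = 8), and Sparc (ENSMUST00000018737) was 346 ± 38.7 (SD, n = 7) and 332 ± 39.2 (SD, n = 8), while its other row ENSMUST00000108858 was 243 ± 75.5 (SD, n = 7) and 202 ± 58.1 (SD, n = 8). Bace1, the beta-secretase, had 3 listed rows. Its main row ENSMUST00000034591 was 466 ± 56.0 (SD, n = 7) in Sham and 476 ± 57.1 (SD, n = 8) in HF-HI, and its other rows had VSD differences of 0.092 ± 0.061 (SE) and -0.12 ± 0.085 (SE), in opposite directions and not past the test. Igf1 was not listed.

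Within groups, the target rows did not track the host row in a common direction. Their median r with the lincRNA row was -0.013, against -0.0036 over all rows, with 21 of the 43 above 0 and 22 below. The lowest was Kdm5b at -0.48 and the highest Mcl1 at 0.53, both among the 4 rows that were higher in HF-HI. Tet3 was at 0.31 and Ppm1d at 0.28.

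The comparison was then widened from the list to every row with an annotated 3′ UTR. Of 9434 such rows, 1569 (16.6%) held at least 1 TGGTGCT, 260 of them 2 or more. The median VSD difference was -0.0024 for the 7865 rows with no site, 0.0014 for the 1309 rows with 1 site and 0.0064 for the 260 rows with 2 or more. The mean was higher in HF-HI for 46.9%, 51.7% and 59.2% of them in that order. Rows of 1 gene often share a UTR and are not independent, and no test was made over them.

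The separation between the medians of rows with and without a site was 0.0048 VSD, and the same quantity taken in single libraries had an SD of 0.0046 within groups. That SD is a spread of single libraries and not the error of a difference between group means. Rows with sites have longer UTRs, with a median of 2843 bases against 1214. Within tertiles of UTR length the order of rows with no site and with sites stayed: the share with a higher mean in HF-HI was 45.8% with no site and 51.6% with 1 or more in the shortest tertile, 45.8% and 50.6% in the middle tertile, and 49.7% and 54.2% in the longest tertile. Limma called 4.4% of the rows with no site higher and 3.95% lower at an unadjusted p under 0.05, and 5.86% and 3.63% of the rows with a site. Beside rows with no site, the median of rows with a miR-29 seed match was thus slightly higher in HF-HI, and the separation was not tested.

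**Figure D5:**
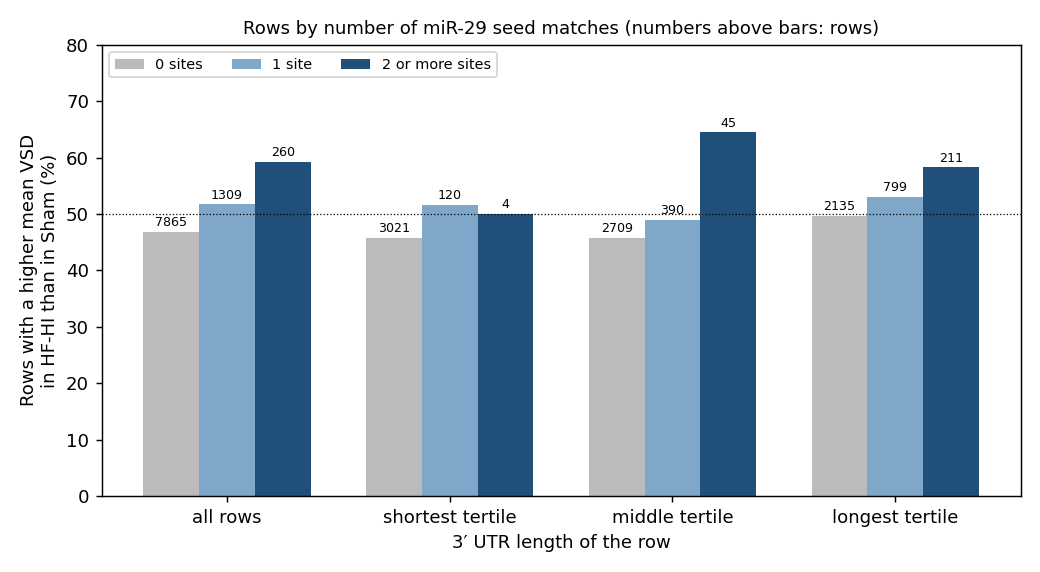
Percentage of rows whose mean VSD was higher in HF-HI than in Sham (vertical axis, from 0; the dotted line is 50), by number of TGGTGCT matches in the 3′ UTR, for all rows and by tertile of UTR length, with the number of rows above each bar. Over all rows the share goes from 46.9% with no site to 59.2% with 2 or more; the shortest tertile has only 4 rows with 2 or more sites.

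The genes of microRNA processing were read as well. Drosha, which cuts the primary transcript, was 458 ± 67.3 (SD, n = 7) normalized counts in Sham and 449 ± 59.5 (SD, n = 8) in HF-HI. Its partner Dgcr8 was 268 ± 41.6 (SD, n = 7) and 251 ± 31.0 (SD, n = 8). The exporter Xpo5 was 395 ± 13.6 (SD, n = 7) and 409 ± 23.8 (SD, n = 8), and Dicer1 was 764 ± 35.6 (SD, n = 7) and 785 ± 33.3 (SD, n = 8). The Argonautes Ago1 and Ago2 were 606 ± 31.4 (SD, n = 7) and 1150 ± 106 (SD, n = 7) in Sham, and 619 ± 41.7 (SD, n = 8) and 1215 ± 80.5 (SD, n = 8) in HF-HI. None of these 6 genes differed in limma at an unadjusted p under 0.05.

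Of the 25 listed rows of the processing list, 5 (20.0%) were higher at an unadjusted p under 0.05 in limma and none lower. Over all rows, 4.94% were higher and 3.9% lower. None of the 25 passed an adjusted p under 0.1. The 5 called rows were Tnrc6b, 2 rows of Tnrc6c, Ago3 and Tut7. All but Tnrc6b are named because their values were seen. Tnrc6b, a scaffold that joins Argonaute to the deadenylases, was 1786 ± 75.2 (SD, n = 7) and 1917 ± 65.6 (SD, n = 8) normalized counts. Tnrc6c had 2 more listed rows with VSD differences of -0.077 and -0.054 that did not pass, so its rows did not move together.

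Other host genes gave the comparison for A330023F24Rik as a host. There were 591 further rows in 383 genes whose span holds an annotated microRNA on the same strand. Limma called 34 of them (5.75%) higher and 17 (2.88%) lower at an unadjusted p under 0.05, beside 4.94% and 3.9% of all rows. In all 8.63% were called, near the 8.83% of the whole table. Of the 81 host rows whose own transcript type is not protein coding, whatever the type of the gene, 7 (8.64%) were higher and none lower. Of these 7, 2 were rows of Meg3 and 1 of Rian, from the same imprinted cluster. The others were rows of Atp5b, Tango2, Stx5a and Dgkz, typed as processed transcript, retained intron or nonsense-mediated decay.

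Among those called, Meg3, an imprinted lincRNA with Mir770 in its span, was higher in 2 of its 7 listed rows, and the other 5 were not called. Its row ENSMUST00000146701 was 15027 ± 997 (SD, n = 7) in Sham and 16860 ± 768 (SD, n = 8) normalized counts in HF-HI, with a VSD difference of 0.15 ± 0.038 (SE) and a limma adjusted p of 0.293. Rian, from the same imprinted cluster, with Mir341 and Mir370, was called in 1 of its 10 listed rows, ENSMUST00000182406, at 574 ± 68.3 (SD, n = 7) and 658 ± 80.2 (SD, n = 8). The most abundant Rian row, ENSMUST00000181253, was 2698 ± 195 (SD, n = 7) and 2664 ± 247 (SD, n = 8), and the VSD differences of the 10 rows ran from -0.093 to 0.075, so its rows did not share a direction. Ctdsp2, a phosphatase gene with Mir26a-2, was called in 1 of its 2 rows, ENSMUST00000105256, at 477 ± 38.2 (SD, n = 7) and 527 ± 21.4 (SD, n = 8), and Tmem245, with Mir32, was 1638 ± 87.5 (SD, n = 7) and 1769 ± 99.1 (SD, n = 8).

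Host rows that were lower included Htr2c, the serotonin 2C receptor with Mir448 among 5 microRNAs, at 167 ± 49.5 (SD, n = 7) and 118 ± 35.0 (SD, n = 8) normalized counts. Zeb2, a zinc finger repressor, was called in 1 of its 6 rows, ENSMUST00000068415, at 729 ± 159 (SD, n = 7) and 598 ± 67.1 (SD, n = 8), and Klf7, a neuronal transcription factor, was 554 ± 39.0 (SD, n = 7) and 505 ± 27.4 (SD, n = 8). Tacc1, Actg1, Tmem94, Brsk2, Dst and Cmip each had 1 row called higher and 1 row called lower, and the summed level of those genes was not tested. Of the host rows given here, Rian and Zeb2 stayed called in 9 of 15 fits with a library left out and Htr2c in 6, and the called rows of Meg3, Ctdsp2, Tmem245 and Klf7 in all 15. With the log2 size factor in the model, the limma calls of Klf7, Zeb2 and Rian were lost, at an unadjusted p of 0.085, 0.12 and 0.16. Tet3 was again in this group, with Mir6374 in its span.

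As a lincRNA, A330023F24Rik stood beside 59 other listed rows of that type from 35 genes. Limma called 10 of them (16.9%) higher and none lower at an unadjusted p under 0.05, against 4.94% and 3.9% of all rows, and none passed an adjusted p under 0.1. Several are rows of 1 gene with shared exons, as with Meg3, and are not independent. The called rows of Meg3, Rian, Gm26945 and B830012L14Rik all lie within chr12:109541001-109702587. Miat and 9530059O14Rik were also each called in more than 1 row. The higher share thus came in part from 1 stretch of chromosome 12. The median VSD difference of the 59 rows was 0.0090, with 37 above 0 and 22 below. Their median r with A330023F24Rik within groups was 0.067, with 37 of 59 above 0.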

How the data were processed

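Cortical RNA from 7 Sham and 8 HF-HI mice was sequenced. Per the study's methods, the authors made stranded, ribosomal RNA depleted libraries, aligned reads to mm10 with STAR, estimated counts per transcript with eXpress, and normalized with DESeq2. The annotation release, the aligner version and the use of strand in counting are not given in the sources used here. The authors deposited DESeq2 VSD values on the log2 scale for 10370 transcripts, a column per library.

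The transformation was inverted. All libraries share a VSD of 9.81 for a count of 0, and 100.0% of values came out as whole multiples of 1 step per library (tolerance 0.1 reads), which gave reads and size factors. Reads in the listed transcripts were 5798810 to 10582858 per Sham library and 3496103 to 8666307 per HF-HI library. The worth of 1 read was 0.679 to 2.00 normalized counts. A doubling moves the VSD by 0.33 from 300 normalized counts and by 0.53 from 1000.

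Each transcript was fitted to the deposited log2 values with limma (version 3.58.1, R 4.3.3), with group as the only term, eBayes with trend, two-sided, Benjamini-Hochberg over all rows. Calls used an unadjusted p under 0.05 and, as in the study, an adjusted p under 0.1. The script was tested on simulated data. Rows were matched to GENCODE M21 (10241 with an entry, 129 without). The 3′ UTR was the exonic sequence after the annotated stop codon, and a miR-29 site was the 7-base match to seed bases 2 to 8. Each library was taken as a separate animal, and where that does not hold the p-values measure technical spread. Replicate numbers do not pair the groups.

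The gene, the lists and the tests were chosen with earlier results of these data known. Named rows were the rows of the gene, its neighbours within 500 kb, host rows and marker rows called at an unadjusted p under 0.05, a fixed set of target and processing genes with any called target, and the 10 highest and 5 lowest within-group r. Alternatives were other normalizations and fits and each library left out.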

Additional observations from a re-analysis of the deposited data

Results flagged for a closer look

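Among 202 groups of 7 or 8 libraries (each named row in Sham and in HF-HI), 12 held a single library set apart from the rest, by the 95% limit of Dixon's ratio, the gap to the nearest library over the range. Chance alone sets apart about 1 group in 20.

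The retained intron row of A330023F24Rik stood at 535 normalized counts in HF-HI replicate 4, against 320 to 414 in the other HF-HI libraries. That library had the fewest reads. The lincRNA row had no such library in either group.

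Of the neighbours, Cd34 (ENSMUST00000110815) was at 325 in HF-HI replicate 2, with 419 to 502 elsewhere in the group. Of the target rows, Bace1 (ENSMUST00000078111) was at 29.4 in Sham replicate 1, with 189 to 284 elsewhere, Dnmt3a (ENSMUST00000020991) at 506 in Sham replicate 5, with 685 to 821 elsewhere, and Tet2 at 485 in HF-HI replicate 2, with 589 to 680 elsewhere. Xpo5 was at 460 in HF-HI replicate 2, with 377 to 416 elsewhere. HF-HI replicate 2 also stood apart on the first principal component of all rows, at 12.6 against -3.4 to 0.72 for the other libraries.

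Among other host rows, Klf7 was at 631 in Sham replicate 5, with 522 to 567 elsewhere in the group, Dennd4b at 169 in Sham replicate 5, with 91.7 to 120 elsewhere, Ankrd52 at 263 in Sham replicate 2, with 320 to 360 elsewhere, and Ppp2ca at 2716 in Sham replicate 4, with 2881 to 2987 elsewhere. Tmem94 (ENSMUST00000103033) was at 217 in Sham replicate 6, with 165 to 181 elsewhere, and Dbn1 at 980 in HF-HI replicate 6, with 706 to 819 elsewhere.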

How the results depend on the processing

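The VSD difference of the lincRNA row, for which it was chosen, stayed positive in every alternative, a description and not a test. It was 0.28 on log2 normalized counts with a pseudocount of 1 and 0.27 by voom on recovered reads, where the scale itself is wider, and 0.12 to 0.14 with each library left out. With the reads of both rows summed, an alternative chosen after seeing the data, it was 0.11. The chosen lincRNA row made up most of that sum. Over all rows, 916 were called at an unadjusted p under 0.05, 533 with the log2 size factor as a covariate and 748 to 987 with a library left out. At an adjusted p under 0.1 the count was 0 in the reported fit and 0 to 1 with a library left out, being 1 without Sham replicate 5, HF-HI replicate 2 or HF-HI replicate 5. The number of target rows called was 4, and 4 to 6 with a library left out. The separation of rows with and without a site was 0.0048 VSD, 0.0034 to 0.0059 with a library left out, and 0.016 and 0.018 on log2 normalized counts and by voom. All 15 rows named for likeness kept an r of at least 0.5 in size under the other scalings, by Spearman correlation and with each library left out. Without the 2 libraries farthest from the median together (added after seeing the data), 13 did, Dctn1 and Eif1b being the exceptions. The 15 rows were picked for their r in these same libraries, so this does not test the likeness.

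Same-numbered libraries of the 2 groups correlated between -0.14 and 0.090 in their deviations, so the numbers do not pair them. A replicate block, which drops HF-HI replicate 8, gave a VSD difference of 0.12 for the lincRNA row, 890 rows called and 4 target rows called. Of 62 named rows called, 32 stayed called with every library left out in turn, 26 with the log2 size factor as a covariate, 45 under the block and 51 by voom. No named row that was called, in the reported fit or in an alternative, changed sign between them.

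Libraries of low depth, and a table with no row under a mean of 108 normalized counts, limit what can be seen of the unlisted transcripts of the gene.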
